A study of Mus musculus with 6 samples.

Results

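The 10 genes described here are parts of the transforming growth factor beta (TGF-beta) pathway: the ligands Tgfb1, Tgfb2 and Tgfb3, the receptors Tgfbr1, Tgfbr2 and Tgfbr3, the signal carriers Smad2 and Smad4, the inhibitor Smad7, and Tgfbi, a secreted protein named for its induction by TGF-beta. They were chosen by name, and all 10 were found among the 37620 genes of the count tables. Smad2, Smad4 and Smad7 lie on chromosome 18, Tgfb1, Tgfb2 and Tgfb3 on chromosomes 7, 1 and 12, Tgfbr1, Tgfbr2 and Tgfbr3 on 4, 9 and 5, and Tgfbi on 13. RNA was sequenced from the hippocampus of 6 C57BL/6 mice aged 13 weeks, 1 library a mouse, each mouse from a litter of its own. There were 3 wildtype mice and 3 mice labelled miR17-92 knockout. The labels do not say which part of the cluster was removed, in which cells or at what age, nor whether any mouse carried a Cre driver. Reads assigned to genes ran from 26439693 to 57246827 a library, with knockout replicate 3 the deepest and knockout replicate 2 the shallowest. The 6 neuronal markers, among them Snap25 and the dentate granule cell factor Prox1, were read in every library and summed to 5575 to 6296 CPM (counts per gene scaled to library size, with TMM factors). Mir17hg, the host transcript of the cluster, had 43, 47 and 36 reads in wildtype replicates 1, 2 and 3 and 30, 35 and 37 reads in knockout replicates 1, 2 and 3, with a log2 fold of -0.22 (SE 0.28, adjusted p = 0.813 with edgeR). Its groups overlapped, and reads over the whole host gene do not check the genotype labels, since the deleted part is not known.

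TGF-beta ligands are secreted in a latent form held to the matrix, and integrins and proteases release them. A released ligand binds the type II receptor Tgfbr2, which recruits and activates the type I receptor Tgfbr1, while Tgfbr3 (betaglycan) presents ligand to them. Tgfbr1 phosphorylates Smad2 and Smad3, which enter the nucleus with Smad4 and switch on target genes. One of these is Smad7, which feeds back on the receptor. In the brain the pathway is known for keeping microglia in their resting identity and for acting on vessels, astrocytes and adult neural stem cells. Tgfbr2, Smad2 and Smad4 are reported targets of miR-17-92, a cluster of microRNAs transcribed as 1 precursor, as are Thbs1, an activator of latent TGF-beta, and the target gene Ccn2. A microRNA can lower the mRNAs to which its seed (bases 2 to 8) pairs, usually in the 3' UTR. The comparison of knockout with wildtype thus asks whether these mRNAs stood at another level without the cluster. Protein was not measured.

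The 6 guide strands of the cluster are shown because their seeds define which members could pair with them. They are RefSeq mature sequences (GRCm38.p6, chromosome 14, plus strand), written 5′ to 3′ with the seed in capitals. miR-17-5p and miR-20a-5p share a seed, and so do miR-19a-3p and miR-19b-3p.
miR-17-5p: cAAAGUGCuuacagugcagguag
miR-20a-5p: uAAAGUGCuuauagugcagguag
miR-18a-5p: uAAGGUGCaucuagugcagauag
miR-19a-3p: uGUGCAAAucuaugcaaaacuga
miR-19b-3p: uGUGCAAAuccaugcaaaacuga
miR-92a-3p: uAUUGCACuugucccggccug

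Seed matches were searched in each gene's longest annotated 3' UTR (GENCODE M21, sense strand), as GCACTTT for miR-17 and miR-20a, GCACCTT for miR-18a, TTTGCAC for miR-19a and miR-19b, and GTGCAAT for miR-92a. Of the 10 members 4 held at least 1 match (Tgfb2, Tgfbr2, Smad2 and Smad7), against 35% of the 14542 genes tested that have an annotated 3' UTR. Members' 3' UTRs had a median of 2113 bases and the genes tested one of 1366, and a longer sequence has more chances to hold a match. By family, 3 members matched miR-17 and miR-20a (14.9% of genes tested), 2 matched miR-18a (10.2%), 1 matched miR-19a and miR-19b (13.8%) and 1 matched miR-92a (7.98%).

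Tgfbr2, the type II receptor, had the only member match to 2 seed families at 1 place. Its match to miR-17 and miR-20a lay at bases 298 to 304 after the stop codon and was followed by an A, the 8-base form of a seed site. The match to miR-19a and miR-19b lay at bases 295 to 301, so both share the letters GCAC. The windows below, with the match in capitals, show this overlap, the miR-18a match of the ligand gene Tgfb2, and those of Thbs1 and Ccn2. In Ccn2 a miR-18a match overlaps a miR-19a and miR-19b match in the same way.
Tgfbr2, miR-17 and miR-20a match, GRCm38 chr9:116090064-116090090, minus strand: aataacgtttGCACTTTattaatgcct
Tgfbr2, miR-19a and miR-19b match, GRCm38 chr9:116090067-116090093, minus strand: gccaataacgTTTGCACtttattaatg
Tgfb2, miR-18a match, GRCm38 chr1:186623820-186623846, minus strand: ttcaaaggaaGCACCTTtttctttaat
Thbs1, miR-18a match, GRCm38 chr2:118125054-118125080, plus strand: cgctggcaatGCACCTTctaaaaacaa
Ccn2, miR-18a match, GRCm38 chr10:24598626-24598652, plus strand: ttacatgtttGCACCTTtctagttgaa
Ccn2, miR-19a and miR-19b match, GRCm38 chr10:24598623-24598649, plus strand: aagttacatgTTTGCACctttctagtt

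Smad2 held 4 matches in a 3' UTR of 6233 bases, 2 to miR-17 and miR-20a and 2 to miR-18a. A pair of them, 1 of each family, started at bases 3434 and 3460 after the stop codon. Smad7 held 1 match to miR-92a and 1 to miR-17 and miR-20a, starting at bases 1377 and 1414. Smad4, though a reported target, held none in its annotated 3' UTR of 1249 bases, and neither did Tgfb1, Tgfb3, Tgfbr1, Tgfbr3 or Tgfbi. A match is a description of letters and does not show that a site is used. No match means that the letters are not in this annotated 3' UTR.

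**Figure D1:**
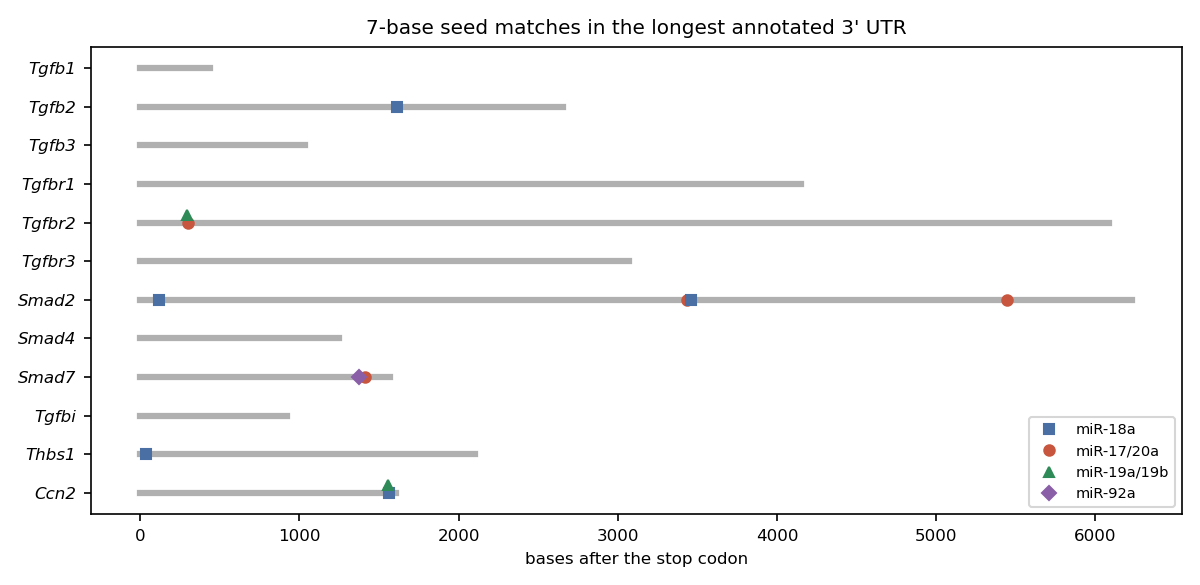
Grey lines give the longest annotated 3' UTR of each member, and of Thbs1 and Ccn2, in bases after the stop codon, and symbols mark 7-base seed matches by microRNA family (miR-19a and miR-19b symbols are raised slightly). Tgfbr2 has its overlapping pair near base 298, Smad2 has 4 matches, and 6 of the 10 members have none.

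No member passed the threshold. Of the 16432 genes tested with edgeR's quasi-likelihood test, 0 had an adjusted p under 0.05 (0% of genes tested), and the adjusted p of the members lay between 0.409 and 0.997. DESeq2 called 164 genes and limma-voom 0, and neither called a member. At an unadjusted p under 0.05 there was 1 member of 10, Tgfbi, where 1746 of all genes tested (10.6%) had one. Wildtype and knockout libraries overlapped for all 10 members, where they did not overlap for 16.6% of all genes tested (8.29% higher and 8.34% lower in knockout). Of the members 4 had a positive and 6 a negative log2 fold (knockout over wildtype, as throughout), with a median of -0.01. The median size of the fold, whatever its sign, was 0.06 for the members and 0.08 for all genes tested. In this bulk tissue, fewer cells of a type and less RNA per cell cannot be told apart, and a difference limited to few cells would be diluted.

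The receptor Tgfbr2, with its overlapping seed matches, stood at nearly the same level in both genotypes. It measured 16.4, 18.5 and 15.2 CPM in wildtype replicates 1, 2 and 3 and 15.6, 16.9 and 15.0 CPM in knockout replicates 1, 2 and 3. Wildtype replicate 2 was the highest library and knockout replicate 3 the lowest, and the other 4 lay between them. The log2 fold was -0.08 (SE 0.09, adjusted p = 0.788 with edgeR), with a 95% interval of 0.82 to 1.09 on the fold scale. A knockout level more than 1.09 times the wildtype level is thus outside the interval for the whole tissue. Without wildtype replicate 2 the log2 fold was 0.003.

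Tgfbr1, the type I receptor kinase, measured 45.2, 51.2 and 44.7 CPM in wildtype and 48.3, 51.8 and 46.5 CPM in knockout. Replicate 2 was the highest library of either genotype, although the numbers pair nothing, since no litter gave more than 1 mouse. Its log2 fold was 0.05 (SE 0.07, adjusted p = 0.815 with edgeR), an interval of 0.93 to 1.15 as a fold, and -0.01 with an offset for GC content. It ran from 0.01 without knockout replicate 2 to 0.12 without wildtype replicate 2. Tgfbr3, the co-receptor betaglycan, measured 24.7, 28.6 and 22.3 CPM against 23.9, 25.3 and 25.2 CPM, with the highest and the lowest library both wildtype. Its log2 fold was -0.02 (SE 0.09), or 0.08 without wildtype replicate 2.

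Among the signal carriers, Smad4, the partner shared by all receptor-activated Smads, varied little over the 6 libraries. Its SD was 3.84% of the mean, the smallest of the members, though Smad7 was close at 4.0%. Smad4 measured 56.4, 54.8 and 53.5 CPM in wildtype and 51.6, 57.4 and 53.8 CPM in knockout, so that knockout libraries were both the highest and the lowest. The log2 fold was -0.02 (SE 0.05, adjusted p = 0.931 with edgeR), and the interval of 0.91 to 1.07 as a fold was the narrowest of the 10. Smad2, the substrate of Tgfbr1 with 4 seed matches, measured 23.9, 26.6 and 24.4 CPM against 23.9, 24.5 and 26.5 CPM. Its groups covered almost the same range, and its log2 fold was -0.001 (SE 0.07), with an interval of 0.90 to 1.11 as a fold. The feedback inhibitor Smad7 measured 19.3, 20.1 and 18.9 CPM against 18.1, 19.5 and 18.2 CPM. Although 2 of 3 knockout libraries lay below every wildtype library, the third lay within their range, and the log2 fold was -0.06 (SE 0.06), or 0.0003 with an offset for GC content. Smad3, the other TGF-beta Smad and not a member, had 90.8 ± 7.1 and 91.4 ± 7.1 CPM (SD, n = 3), a log2 fold of 0.01 (SE 0.07), or -0.05 without wildtype replicate 1.

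**Figure D2:**
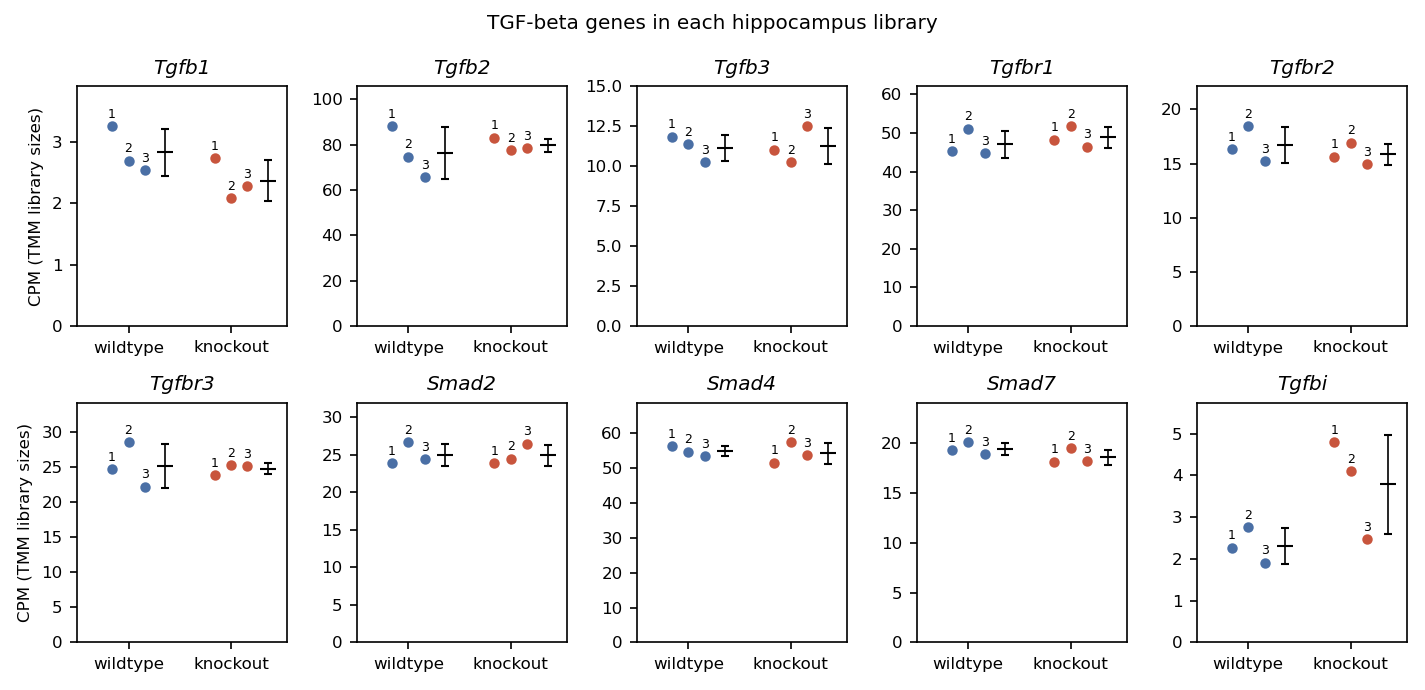
Each panel shows 1 member in CPM (TMM library sizes, axes from 0), with wildtype libraries in blue, knockout libraries in red, replicate numbers above the points, and bars for the mean ± SD of 3 libraries. Groups overlap in every panel, and Tgfbi has the widest spread relative to its mean, from 1.91 to 4.79 CPM.

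Of the ligands, Tgfb2 was read far above the other pair per length of mRNA. With CPM divided by the gene's exon length in kilobases, Tgfb2 made up 76.2% to 79.5% of the summed level of the 3 ligand genes in the 6 libraries, Tgfb3 18% to 20.9% and Tgfb1 2.46% to 3.39%. Tgfb2 measured 88.2, 74.7 and 65.7 CPM in wildtype and 83.1, 77.5 and 78.4 CPM in knockout, with a log2 fold of 0.06 (SE 0.09, adjusted p = 0.843 with edgeR). Wildtype libraries were both its highest and its lowest, and the fold was 0.18 without wildtype replicate 1 and -0.03 without wildtype replicate 3. In wildtype replicate 1, the library highest in Tgfb2, the summed level of 6 choroid plexus markers (none at 0) was 65.7 CPM, against 25.5 to 38.7 CPM in the other libraries. That rank rests on Ttr (39.0 CPM against 1.56 to 5.73 CPM), while Kl, the other abundant marker, was highest in knockout replicate 2 (32.8 CPM against 24.7 CPM in wildtype replicate 1). The part of these cells in the Tgfb2 values was not tested. Tgfb3 measured 11.8, 11.4 and 10.3 CPM against 11.0, 10.3 and 12.5 CPM, a log2 fold of 0.02 (SE 0.10). Tgfb3 overlaps Ttll5 on the opposite strand, and reads of the pair cannot be told apart if strand was not counted. The Tgfb3 fold turned to -0.04 without wildtype replicate 3 and to -0.07 without knockout replicate 3.

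Tgfb1, the ligand that microglia make and depend on, was read about as little as Tgfbi, with 55 to 131 reads a library. It measured 3.27, 2.70 and 2.54 CPM in wildtype and 2.74, 2.09 and 2.28 CPM in knockout. Knockout replicate 1 lay within the wildtype range and the other 2 knockout libraries below it. The log2 fold was -0.26 (SE 0.17, adjusted p = 0.617 with edgeR), with an interval of 0.64 to 1.09 as a fold, and it ran from -0.37 to -0.15 with 1 library left out, the latter without wildtype replicate 1. The interval is wider than that of the other ligands. The 8 microglia markers (none at 0) summed to 346 to 367 CPM in wildtype and 335 to 361 CPM in knockout, where their groups overlapped, and their part in the Tgfb1 values was not tested.

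Tgfbi showed the largest fold of the 10 and the widest spread between mice relative to its mean. It measured 2.27, 2.77 and 1.91 CPM in wildtype and 4.79, 4.10 and 2.47 CPM in knockout, from 61 to 154 reads a library. Knockout replicates 1 and 2 stood above every wildtype library, while knockout replicate 3 lay below wildtype replicate 2. Means were 2.32 ± 0.43 and 3.79 ± 1.2 CPM (SD, n = 3), and the log2 fold was 0.68 (SE 0.25), which is 1.60-fold with an interval of 1.08 to 2.39. The unadjusted p of this edgeR fit was 0.0251, the 1010th smallest of 16432, and the adjusted p was 0.409. Of 14 alternative fits, 9 gave an unadjusted p under 0.05. With limma-voom the log2 fold was 0.54 and the unadjusted p 0.0814. In edgeR, leaving out knockout replicate 1 gave a log2 fold of 0.47, and leaving out knockout replicate 3 gave 0.93.

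**Figure D3:**
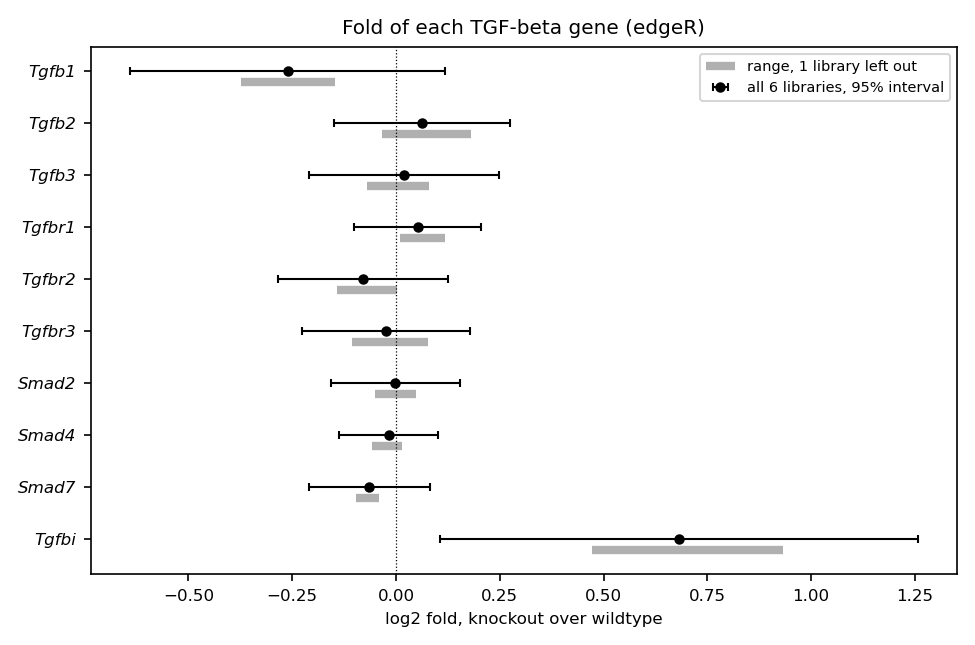
Black points give each member's log2 fold, knockout over wildtype, with bars for the 95% interval from edgeR, and grey bands the range when 1 library is left out. The intervals of 9 members include 0, and that of Tgfbi runs from 0.11 to 1.26 before any adjustment for the number of genes.

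Tgfbi is also known as a gene of macrophages and fibroblasts, so markers of such cells were read beside it. The 6 markers of macrophages at the borders of the brain (Mrc1, Lyve1, Cd163, F13a1, Pf4 and Ms4a7, none at 0) summed to 7.22 to 9.69 CPM in wildtype and 11.6 to 12.5 CPM in knockout. Of the 5 of them tested, 5 had a positive log2 fold, where 50% of all genes tested had one. Lyve1, Cd163 and F13a1 were higher in knockout without overlap, against 8.29% of all genes tested. Their adjusted p was 0.285 to 0.432 in edgeR. The 9 markers of meningeal fibroblasts (none at 0) summed to 90.7 to 104 CPM in wildtype and 107 to 131 CPM in knockout, again with all 9 log2 folds positive. All 6 astrocyte markers had positive folds too. The border macrophage sums were close in knockout replicates 1, 2 and 3, at 11.6, 12.3 and 12.5 CPM. The fibroblast sum was highest in knockout replicate 3 (131 CPM), the knockout library lowest in Tgfbi (2.47 CPM). That rank rests on Dcn, the most abundant of these 9 markers. Dcn measured 63.8 CPM in knockout replicate 3 and 41.9 to 49.2 CPM in the other libraries, and its groups overlapped. The part of these cells in the Tgfbi values was not tested. Over the 6 libraries, the patterns most like that of Tgfbi among 14171 named protein-coding genes were those of Lrrc46, Capn12, Kpna2, Igf2 and Cenps. Their log2 CPM, centred on each gene's mean, differed from that of Tgfbi by a root mean square of 0.14 to 0.16, where Tgfbi itself varied by 0.46.

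**Figure D4:**
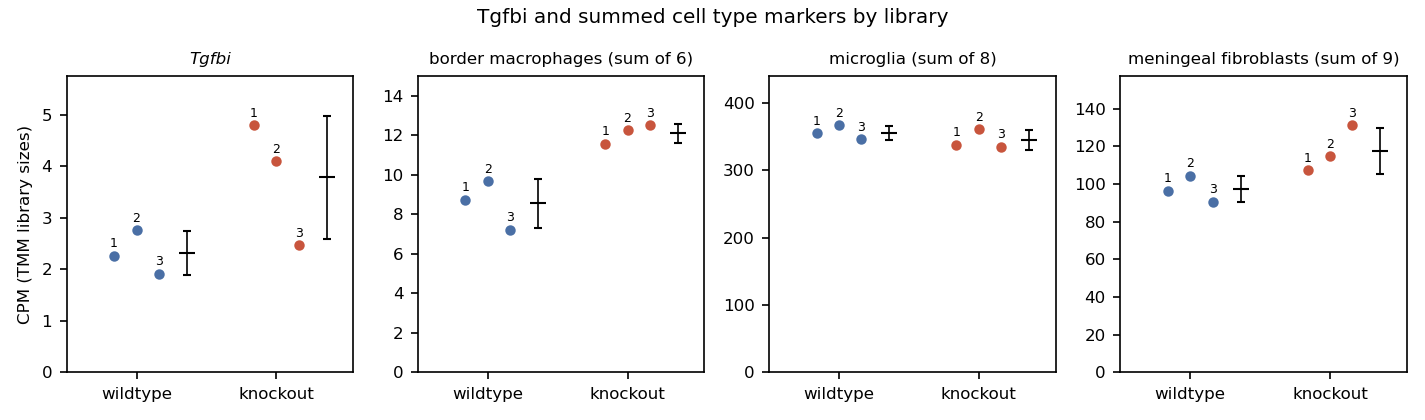
CPM of Tgfbi and the summed CPM of markers of border macrophages, microglia and meningeal fibroblasts are shown by library (axes from 0, bars for mean ± SD of 3 libraries, replicate numbers above the points). Knockout libraries lie above wildtype for border macrophages (11.6 to 12.5 CPM against 7.22 to 9.69 CPM) and meningeal fibroblasts, and overlap with them for microglia and Tgfbi.

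The same likeness measure gave Grin2b, Tcf7l1, Tesc, Nudt17 and Tnfsf13 for Tgfb1 (root mean square of 0.041 to 0.056, where Tgfb1 varied by 0.20). For Smad7 it gave Slc48a1, Rab11fip5, Pdcd4, Neurl1b and Eif3l (0.007 to 0.015, where Smad7 varied by 0.05). With 6 libraries and 14171 genes compared, such neighbours are a description only.

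Per kilobase of exon, the members spanned more than an order of magnitude in level. Over all 6 libraries, Smad4 had 14.7 ± 0.56 CPM per kb (SD) and Tgfb2 13.5 ± 1.3, and their ranges overlapped. Tgfbr1 followed at 7.34 ± 0.46, apart from its neighbours on both sides. Smad7 (4.20 ± 0.17), Tgfbr3 (3.82 ± 0.32), Tgfb3 (3.32 ± 0.26) and Smad2 (2.84 ± 0.14) formed a run in which each range overlapped the next. Tgfbr2 was lower at 1.99 ± 0.16. Tgfbi (0.809 ± 0.30) and Tgfb1 (0.516 ± 0.081) were lowest, with overlapping ranges, and 15.5% of genes tested had a lower level than Tgfb1. These levels use all annotated exons, so a gene read from a shorter form has a level that is too low.

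The members also differed in how evenly the 6 mice carried them. The coefficient of variation of CPM over the 6 libraries was 3.84% for Smad4, 4.0% for Smad7 and 5.05% for Smad2, and 6.29% to 9.82% for Tgfbr1, Tgfb3, Tgfbr2, Tgfbr3 and Tgfb2. It was 15.7% for Tgfb1 and 37.2% for Tgfbi. These values include any difference between the genotypes, and within genotype Tgfbi had 18.5% in wildtype and 31.4% in knockout. Counting error alone would give 10.3% for Tgfb1, 9.75% for Tgfbi, 3.78% for Smad7 and 2.23% for Smad4.

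Ratios between members were compared within libraries, which removes the library's scale. The Tgfbr1 level per kb was 3.47 to 3.69 times that of Tgfbr2 in wildtype and 3.83 to 3.89 times in knockout, which did not overlap. Tgfb1 made up 3.18% to 3.39% of the ligand level in wildtype and 2.46% to 2.99% in knockout. These shares did not overlap either, but they rest on 55 to 131 Tgfb1 reads a library. Of 5 such quantities, these 2 reached p = 0.1 in a two-sided exact permutation test, and 0.25 after Benjamini-Hochberg adjustment. This p is the smallest that 3 libraries against 3 can give, and any quantity without overlap reaches it. For single genes, groups did not overlap in 16.6% of all genes tested. Smad4 over Smad2 was 5.21 ± 0.36 in wildtype and 5.16 ± 0.37 in knockout (SD, n = 3). The transcripts of Tgfbr1 and Tgfbr2 differ in base composition (41.0% and 49.6% GC), and with an offset for GC content the log2 folds were -0.01 for Tgfbr1 and -0.08 for Tgfbr2.

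The other genes of the pathway were read from lists by role. Of 99 further genes 97 were tested, and edgeR called 0. DESeq2 called 3 of them, Junb, Ccn1 and Thbs2, and edgeR without a filter on low counts called Junb. At an unadjusted p under 0.05 there were 6 higher and 7 lower in knockout, 13.4% of those tested against 10.6% of all genes tested. Groups did not overlap for 10 higher and 10 lower, 20.6% against 16.6%. Both shares lie near those of all genes, and the median log2 fold was 0.03.

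The list for latency and activation of TGF-beta had 10 positive and 10 negative folds among 20 tested. A place on this list does not show that a gene stores or releases the ligand. Thbs2, a thrombospondin of the matrix, measured 4.84, 5.49 and 5.77 CPM in wildtype and 7.93, 7.33 and 7.52 CPM in knockout. All knockout libraries lay above all wildtype libraries, with a log2 fold of 0.50 (SE 0.11) and an adjusted p of 0.250 in edgeR, or 0.0498 in DESeq2. The related Thbs1, a reported cluster target with a miR-18a match, had 5.50 ± 0.58 and 4.89 ± 0.69 CPM (SD, n = 3) and a log2 fold of -0.16 (SE 0.14), which was -0.25 without wildtype replicate 3, -0.29 without knockout replicate 3 and -0.09 without knockout replicate 2. Furin, the protease that cuts the ligand precursors, had a log2 fold of -0.16 (SE 0.05, adjusted p = 0.358 with edgeR), or -0.10 with an offset for GC content, with groups that did not overlap. The integrins Itgav and Itgb8, which activate latent ligand in the brain, had log2 folds of 0.02 and 0.09, which were -0.03 and 0.03 with an offset for GC content. The latent binding proteins Ltbp1 and Ltbp4 had log2 folds of 0.03 (-0.07 without wildtype replicate 2) and -0.24 (-0.08 without wildtype replicate 2, -0.11 with the GC offset). Nrros, which holds latent Tgfb1 on microglia, stood at 0.32 (0.17 without knockout replicate 1) and the microfibril gene Fbn2 at -0.33.

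Of 9 other receptors and co-receptors, 4 had a positive and 5 a negative fold. The 2 activin type II receptors differed in sign. Acvr2b measured 3.71, 3.27 and 3.39 CPM in wildtype and 2.71, 2.54 and 2.73 CPM in knockout, without overlap. Its log2 fold was -0.37 (SE 0.13), with an adjusted p of 0.382 in edgeR. Acvr2a measured 79.9, 74.7 and 93.5 CPM against 93.4, 94.6 and 98.2 CPM, a log2 fold of 0.21 (SE 0.08), where wildtype replicate 3 lay within the knockout range. The endothelial co-receptor Eng had a log2 fold of -0.20 (-0.13 with an offset for GC content or without knockout replicate 3), and the endothelial type I receptor Acvrl1 one of -0.05, or 0.05 without knockout replicate 3. Beside Eng, 6 endothelial markers (none at 0) summed to 131 to 144 CPM in wildtype and 123 to 134 CPM in knockout. Flt1, the most abundant of them, had a log2 fold of -0.01, while 4 of the 6 were lower in knockout without overlap, against 8.34% of all genes tested. Of these 4, Cldn5 stood at -0.32, Kdr at -0.25, Tek at -0.25 and Cdh5 at -0.13, with adjusted p of 0.311 to 0.624 in edgeR. Pecam1 stood at 0.08. The part of endothelial cells in the Eng values was not tested. Acvr1c and Bmpr2 stood at -0.13 (-0.06 without wildtype replicate 1) and -0.04 (-0.01 without knockout replicate 1, -0.10 with the GC offset).

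In the activin branch, whose ligands signal through Smad2 and Smad3 as well, 6 of 9 genes had a positive fold. Inhba, the activin A subunit that neurons make on activity, had 3.03 ± 0.63 and 4.12 ± 0.72 CPM (SD, n = 3). Its log2 fold was 0.44 (SE 0.19), with an adjusted p of 0.467 in edgeR, and the fold was 0.28 without wildtype replicate 2. Mstn, which encodes myostatin, was near the floor at 0.335 ± 0.028 and 0.557 ± 0.12 CPM, with groups that did not overlap and a log2 fold of 0.70 (SE 0.29). Inhbb stood at -0.24, and at -0.38 without wildtype replicate 3, -0.15 without wildtype replicate 2 or knockout replicate 1, and -0.12 with an offset for GC content. Gdf11 stood at -0.12 (-0.06 without wildtype replicate 1), and Fstl1 at 0.09 (0.06 without wildtype replicate 1 or knockout replicate 2).

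Among 25 other Smads and Smad regulators, 13 folds were positive and 12 negative. Groups did not overlap for 5 higher and 3 lower in knockout, 32% against 16.6% of all genes tested. No test was run over the list. Usp15, a deubiquitinase that keeps the type I receptor active, had a log2 fold of 0.11 (SE 0.04), and Ski, a repressor of Smad complexes, one of -0.12 (SE 0.04), neither group pair overlapping. With an offset for GC content they stood at 0.06 and -0.07, with unadjusted p of 0.125 and 0.138 in edgeR. Hipk2 stood at -0.18 (SE 0.06, adjusted p = 0.358 with edgeR), also without overlap. Dab2, an adaptor that links receptors to Smads, stood at 0.21, and the BMP Smad gene Smad5 at 0.13 (0.05 without knockout replicate 3). In the kinase branch, Tab1, which activates the kinase TAK1, had a log2 fold of -0.20 (SE 0.08) and Map3k7, which encodes TAK1, one of 0.10. Their groups did not overlap, 33.3% of the 6 genes of this branch against 16.6% of all genes tested. With the same offset Tab1 stood at -0.12 (unadjusted p = 0.117 in edgeR) and Map3k7 at 0.06, which was also its fold without knockout replicate 2. Traf6, Tab3 and Mapk14 stood at 0.06 (-0.003 without knockout replicate 3), 0.04 (-0.02 with an offset for GC content) and 0.02 (0.001 without knockout replicate 2).

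Of the transcriptional targets 31 of 32 were tested, with 21 positive and 10 negative folds and a median of 0.07. Zeb1 was left out by the filter on low counts. The 2 genes of smallest p lay on the lower side. Junb, an AP-1 factor, measured 69.0, 65.3 and 50.5 CPM in wildtype and 40.6, 44.3 and 37.0 CPM in knockout. Its log2 fold was -0.61 (SE 0.11), with adjusted p = 0.192 in edgeR and 1.77e-05 in DESeq2. The fold ran from -0.62 to -0.47 in the alternatives with every library, and from -0.73 to -0.52 with 1 library left out. Ccn1, a matricellular protein, measured 9.60, 9.17 and 6.75 CPM against 5.19, 4.56 and 5.75 CPM. Its log2 fold was -0.71 (SE 0.15), with adjusted p = 0.250 with edgeR and 0.00726 with DESeq2. Both are also immediate early genes of active neurons. On the other side, the collagen gene Col1a2 had a log2 fold of 0.36 (SE 0.12), with groups that did not overlap. It is also 1 of the meningeal fibroblast markers given above.

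Of the other targets, Ccn2 was fixed by name and had 4.70 ± 0.66 and 5.35 ± 0.60 CPM (SD, n = 3). Its log2 fold of 0.19 (SE 0.14) was 0.09 without wildtype replicate 1 and 0.11 without knockout replicate 1. Bhlhe40 and the matrix gene Tnc were named for their small p. Bhlhe40 stood at 0.19 (0.11 without wildtype replicate 1) and Tnc at 0.31 (0.20 without wildtype replicate 2, 0.49 without wildtype replicate 3). Genes named this way do not stand for the whole list, whose median was 0.07. The 5 reported cluster targets of the pathway (Tgfbr2, Smad2, Smad4, Thbs1 and Ccn2) had 1 positive and 4 negative folds, where 50% of all genes tested were positive. In edgeR 0 had an unadjusted p under 0.05, against 10.6% of all genes tested. Groups overlapped in all 5, where they did not overlap for 16.6% of all genes tested. With 5 genes, such counts cannot be set apart from these shares.

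**Figure D5:**
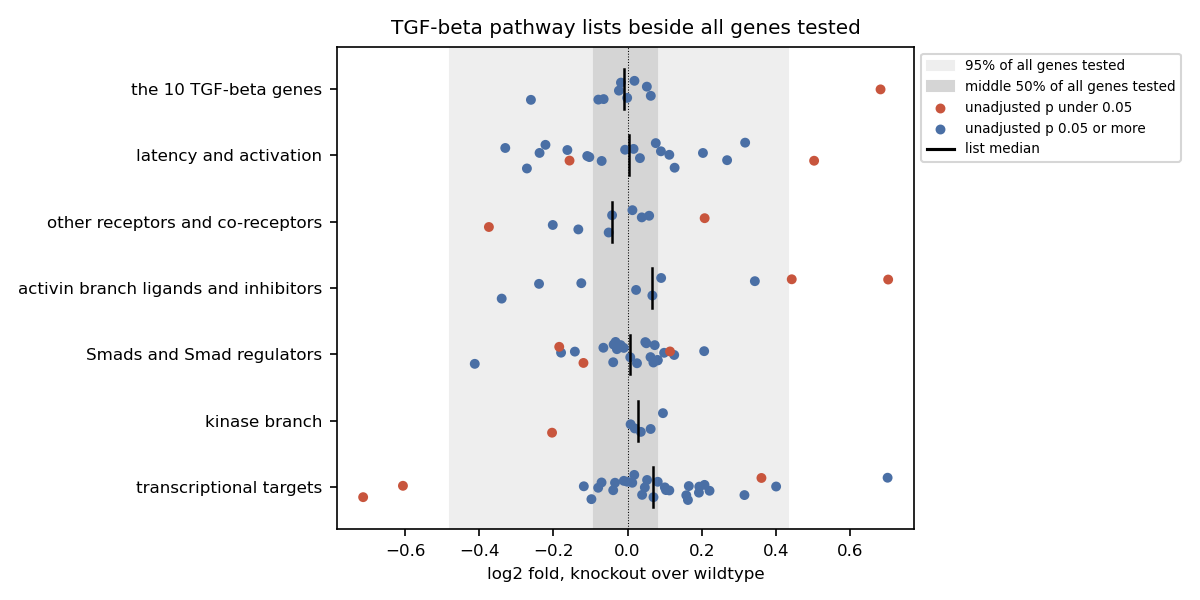
Points are log2 folds, knockout over wildtype, of the tested genes in each list, red where the unadjusted p is under 0.05, with a black bar at the list median and shading for the spread of all 16432 genes tested. Of the 10 members all but Tgfb1 and Tgfbi lie close to 0, and the lowest points among transcriptional targets are Ccn1 and Junb.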

How the data were processed

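The authors deposited raw read counts per Ensembl gene, 1 table for each of 6 hippocampus libraries. The submitters' processing notes name STAR 2.3.0e, HTSeq, SAMtools, DESeq2 and FastQC 0.10.1, and build mm9. What each tool did, which annotation was used and whether strand was counted is not given in the sources used here. If strand was not counted, reads of antisense genes cannot be told apart. Among counted genes on the opposite strand, Tgfb3 overlaps Ttll5, Tgfb2 overlaps the snoRNA gene Gm26169 and Tgfbr3 overlaps the pseudogene Gm8145. The 5 rows that name no gene held 38.0% to 40.3% of each file and were left out.

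Symbols came from GENCODE M21 (GRCm38), which matched 32897 of 37620 identifiers. Exon lengths, GC content and 3' UTRs came from it too, and site coordinates are GRCm38. The test was edgeR 4.0.16 (R 4.3.3), quasi-likelihood, with genotype as the single term. Low counts were removed by filterByExpr, libraries scaled by TMM, and p-values adjusted by Benjamini-Hochberg over 16432 genes (threshold 0.05). SEs are fold over root F, and intervals use the fit's degrees of freedom. The same fits were run on simulated counts with known folds, whose spread followed the trend over all genes. That checks the code only and does not show how large a change could be found in a member. All 172 distinct genes of the member, pathway and marker lists matched.

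Members and lists were chosen with earlier results of these data known. Named were the members, 9 pathway genes fixed by name (1 is not reported here), and up to 5 genes of smallest p per list. For the 3 members of smallest p, the 5 most alike genes were named too, and cell type markers only beside a result they touch. Alternatives were DESeq2 size factors, 2 other filters, DESeq2 1.42.0, limma-voom (limma 3.58.1), edgeR's robust fit, a replicate block, a GC offset, a threshold of 0.10 and leaving out each library.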

Additional observations from a re-analysis of the deposited data

How the results depend on the processing

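No member was called under any of the 15 alternatives, adjusted p of 0.10 included, and the smallest adjusted p of a member was 0.251 (Tgfbi without knockout replicate 3). Counts over all genes did depend on the setting. There were 62 calls without a filter (36 higher, 26 lower), 164 with DESeq2 (75 and 89), 15 with the robust fit (13 and 2), 18 at 0.10 (14 and 4), and 0 in the other settings with every library. With 1 library left out there were 0 to 17, with 17 without knockout replicate 3, 16 without wildtype replicate 2, and 2 each without wildtype replicate 1 and knockout replicate 1. Without a filter Junb had an adjusted p of 0.00874. The cause was not tested.

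Each mouse came from another litter, so no pairing stands behind the replicate numbers. With the replicate block there were 0 genes and 0 members called, and the correlation across genes between libraries of 1 number was -0.10, -0.02 and -0.15.

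Directions of Tgfb1 and Tgfbi held in all 14 other fits, with log2 folds of -0.37 to -0.15 and 0.47 to 0.93. The other 8 members turned in at least 1, in 14 of 140 values, none near the threshold. With limma-voom Smad2 was 0.0066 and Smad3 -4.9e-05. With the GC offset Tgfbr1 was -0.0076, Smad7 0.00033, Itgav -0.029, Acvrl1 0.011 and Tab3 -0.020. Ranges with 1 library left out were -0.035 to 0.18 (Tgfb2), -0.069 to 0.081 (Tgfb3), -0.14 to 0.0025 (Tgfbr2), -0.11 to 0.078 (Tgfbr3), -0.050 to 0.048 (Smad2), -0.057 to 0.015 (Smad4), -0.055 to 0.071 (Smad3), -0.043 to 0.057 (Itgav), -0.066 to 0.095 (Ltbp1), -0.24 to 0.050 (Acvrl1) and -0.0031 to 0.13 (Traf6).

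The members' 3' UTRs held 9 seed matches of 7 bases, 30 of 6 bases and 2 of 8 bases. Low read numbers limit Tgfb1 and Tgfbi most.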
